A study of Mus musculus with 12 samples.

Results

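Gm10252 and Gm47428 are mouse genes that lie on the opposite strand over the first exonic bases of ferritin light chain genes. Gm10252 (ENSMUSG00000110350) runs over exon 1 of Ftl1, and Gm47428 (ENSMUSG00000113311) runs antisense to Ftl1-ps1, a retrogene copy of Ftl1. They were taken by gene symbol and are 2 of the 27942 genes analysed. Both were chosen by their FPKM in OI against control libraries, the contrast described below, so their differences between these groups are given as a description and carry no test.

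RNA was sequenced from C2C12, a single mouse myoblast line whose cells stop dividing and fuse into myotubes when serum is reduced. In the treated group the cells were kept for 7 days in differentiation medium that contained 4-octyl itaconate (OI) at 25 µmol/L. OI is an ester of the metabolite itaconate that enters cells. The control group had the same 7 days in differentiation medium without OI. Both groups came from cells grown to 80% density in 10% fetal bovine serum and moved to 2% horse serum. Each group had 3 libraries, and 3 further samples of each group were not analysed here. Whether the libraries of a group stand for independent cultures is not said in the labels. A p-value here therefore reflects library-to-library spread, which could be purely technical.

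Ferritin is a hollow protein shell built of heavy and light chains that stores iron in a non-reactive form. The heavy chain oxidises iron, and the light chain, made from Ftl1, helps it to form the mineral core. Translation of both mRNAs is held back in iron-poor cells by iron regulatory proteins, which bind a hairpin near the 5′ end called the iron-responsive element (IRE). Transcription of ferritin genes is a known target of NRF2, the transcription factor of the antioxidant response, which itaconate derivatives activate by modifying its inhibitor KEAP1. Ftl1, Ftl1-ps1 and the heavy chain gene Fth1 themselves were not analysed here, so ferritin light chain sequence was read through genes that overlap or copy it.

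Gm10252 is a gene of 1 exon and 832 bases on the plus strand, at chr7:45459469-45460300 in GRCm38 (mm10). GENCODE M21 gives it the class TEC, a provisional class for models that still await experimental proof. It covers all 355 bases of the first exon of Ftl1 on the opposite strand, which is 42.7% of its own length, and its other 477 bases lie outside Ftl1 exons. Gm47428 is an antisense gene of 2 exons and 661 bases on the minus strand, at chr13:74404183-74406737. Of its bases, 329 (49.8%) lie opposite exonic bases of Ftl1-ps1, all of them in its 359-base exon. The remaining 332 bases include a 302-base exon that lies upstream of Ftl1-ps1, at positions -2421 to -2120 relative to its start codon.

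**Figure D1:**
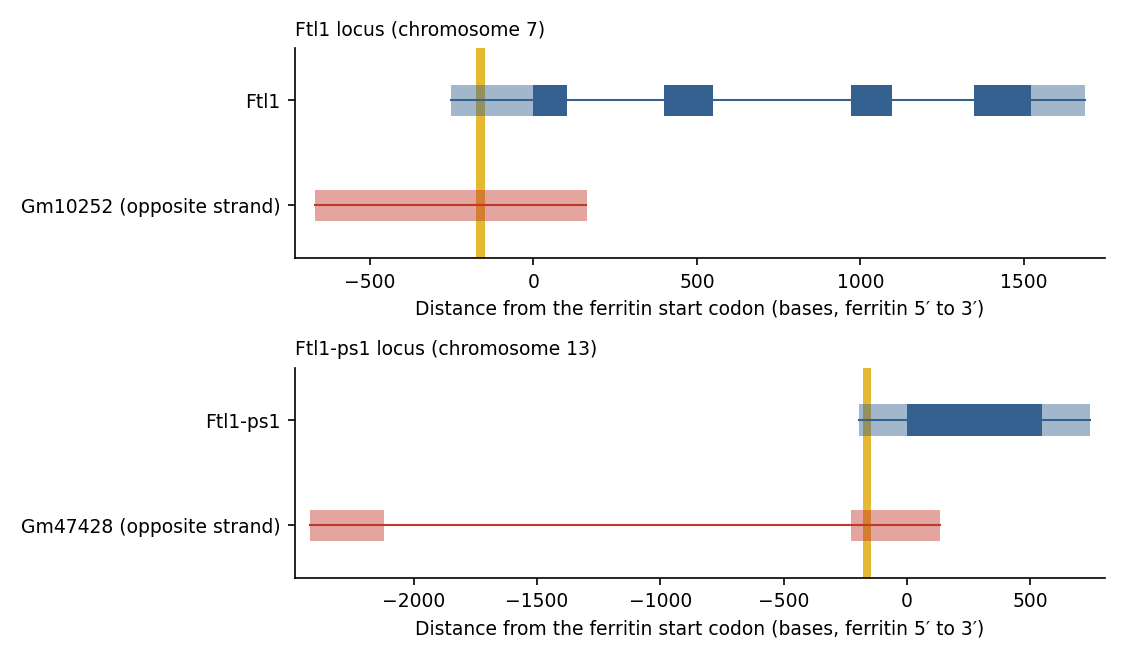
Exons of Gm10252 over Ftl1 (above) and of Gm47428 over Ftl1-ps1 (below), by distance in bases from the ferritin start codon in the direction of ferritin transcription. Boxes are exons, dark boxes are coding bases, lines are introns and the yellow bar is the IRE window, which lies between 176 and 147 bases before the start codon in both ferritin transcripts and inside an exon of both opposite-strand genes.

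The IRE is shown because both opposite-strand genes contain it, in reverse. In the lines below it is given as the ferritin transcripts read it, 5′ to 3′, and as the reverse complement of the 2 opposite-strand genes. The capitals mark the motif searched: an unpaired C, 5 stem bases, the loop CAGTGN and the 5 bases that pair with the stem.
Ftl1: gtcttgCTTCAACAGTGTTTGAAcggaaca
Ftl1-ps1: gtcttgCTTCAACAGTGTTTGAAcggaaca
Gm10252 (reverse complement): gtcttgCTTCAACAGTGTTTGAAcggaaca
Gm47428 (reverse complement): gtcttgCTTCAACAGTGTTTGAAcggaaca

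The window lies at chr7:45459778-45459807, on the minus strand in Ftl1 and the plus strand in Gm10252. Its copy lies at chr13:74406428-74406457, on the plus strand in Ftl1-ps1 and the minus strand in Gm47428. The 30 bases are the same at both loci, so a read that lies within them could have come from either locus. The motif was found in the first 200 bases of 17 of 58616 protein-coding transcripts (0.029%), and in 19 (0.032%) when either strand was allowed. The 17 transcripts belong to 10 genes, among them Ftl1, Ftl1-ps1, Fth1 and Slc40a1 (the iron exporter ferroportin).

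Near-identity reached well past the hairpin. Bases 61 to 373 of Gm10252 aligned to bases 32 to 345 of Gm47428 with 312 of 314 alignment columns identical, leaving 1 mismatch and 1 gap. The mismatch, T221C with positions counted from 1 at the 5′ end of Gm10252, is the only base in this stretch that tells the 2 genes apart by its letter. It is in capitals in the windows below, at chr7:45459675-45459704 on the plus strand and chr13:74406531-74406560 on the minus strand.
Gm10252: ctggtcctaggagcTgaaggcagcgaggag
Gm47428: ctggtcctaggagcCgaaggcagcgaggag

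Against the ferritin transcripts themselves, Gm10252 matched that of Ftl1-ps1 at 297 of 298 aligned positions (99.7%), and Gm47428 matched that of Ftl1 at 343 of 345 (99.4%). The longest Ftl1 and Ftl1-ps1 transcripts matched each other at 906 of 910 (99.6%). Counted in windows of 50 bases on either strand, 307 of 783 windows of Gm10252 (39.2%) occurred unchanged in Ftl1 transcripts, 199 (25.4%) in Ftl1-ps1 transcripts and 211 (26.9%) in Gm47428. Of the 612 windows of Gm47428, 280 (45.8%) occurred in Ftl1-ps1 transcripts, 242 (39.5%) in Ftl1 transcripts and 211 (34.5%) in Gm10252. With windows of 100 bases, 15.1% of those of Gm10252 and 19.8% of those of Gm47428 occurred in the other gene. How strand was handled in the counting, and how reads with several matches were treated, is not stated in the sources at hand. Reads of a gene and its opposite-strand partner, and reads shared by the 2 loci, could therefore not be told apart, and all values of both genes below are uncertain in this way.

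The first coding bases of Ftl1 are shown because they lie inside Gm10252 and recur in several other genes. These 102 bases of exon 1, at chr7:45459530-45459631 on the minus strand, begin with the start codon, in capitals.
Ftl1 exon 1, coding part: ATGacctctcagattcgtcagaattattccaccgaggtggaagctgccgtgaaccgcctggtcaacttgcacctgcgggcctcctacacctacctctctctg
An exact copy was found in 8 annotated transcripts of 6 genes. Ftl1, Ftl1-ps1, Gm15590 and Ftl2-ps hold it in the sense direction, and Gm10252 and Gm47428 hold it on the opposite strand.

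Gm10252 extends past the start of Ftl1 and spans its promoter. The 250 bases before the RefSeq start of Ftl1 (RefSeq sequence, GRCm38.p6, chr7:45459887-45460136, minus strand) are bases 419 to 668 of Gm10252, read in reverse. The sequence is shown because reads assigned to Gm10252 but not to Ftl1 exons would have to lie in this stretch or in the other bases outside exon 1. Capitals mark ATTGG, the reverse complement of the CCAAT box, which nuclear factor Y binds.
Ftl1 promoter: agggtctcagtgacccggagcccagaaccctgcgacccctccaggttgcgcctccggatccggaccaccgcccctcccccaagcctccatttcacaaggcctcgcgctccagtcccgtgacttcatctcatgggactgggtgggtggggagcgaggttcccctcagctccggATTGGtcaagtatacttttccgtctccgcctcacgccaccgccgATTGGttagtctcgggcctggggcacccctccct
CCAAT on either strand occurred 2 times here, and in at least 1 copy in 33.8% of 32851 mouse promoters of the same length. TATAAA was not in these 250 bases on either strand but was in the 50 bases after the RefSeq start, and 13.6% of the 300-base windows held it. The site, at chr7:45459852-45459881 on the minus strand has the motif in capitals, and the motif begins 30 bases before the start of a shorter annotated Ftl1 transcript.
Ftl1 TATA site: gggtcaacatgcTATAAAaggagcgctcct
TGACNNNGC, the core of the element that NRF2 binds, was searched on both strands and is not in the 250-base window, while 10.2% of the promoters hold it. It occurred 1 time in the whole of Gm10252 and 2 times in Gm47428, which are longer sequences for which no share over regions of equal length was computed. The motifs do not overlap each other. These matches describe letters in 1 window and say nothing of binding.

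The values are FPKM, fragments scaled by gene length and by library size, as the authors deposited them. Whole read numbers could be recovered from them, and library sizes came to 32122000, 36274000 and 25684000 in the OI group, against 24441000, 30522000 and 29993000 in the control group. Control replicate 1 stood apart. Its analysed genes took 23.9% of its reads, against 5.25% to 5.77% in each of the other 5 libraries. AY036118, a transcript that matches ribosomal RNA, took 6.53% of its reads and at most 0.226% elsewhere. Of the genes that mark differentiation, Tnnc1, the slow muscle troponin C, had 24.7, 23.0 and 21.9 FPKM in OI libraries, against 140, 110 and 128 FPKM in control libraries, and it fell by 2.39 on the log2(FPKM + 1) scale (limma adjusted p = 0.000188). AC157554.3, opposite the myoglobin gene Mb, averaged 0.61 ± 0.20 FPKM in OI cells and 5.69 ± 0.70 FPKM in control cells (SD, n = 3 each). It fell by 2.05 (limma adjusted p = 0.000775). AC157554.3 passed the filter for testing, 1 FPKM or more in at least 3 libraries, only through the control libraries. Its lower OI value was thus favoured by the filter, which Tnnc1 passed in all libraries. Gm15179, opposite the marker Des, was not tested, with means of 0.12 FPKM in OI cells and 0.15 FPKM in control cells. The part of Tnnc1 and AC157554.3 in the values of Gm10252 and Gm47428 was not tested. The other 10 myotube markers and all 6 markers of dividing myoblasts fixed for the check were not analysed here. In bulk RNA, a change in the share of cells of a type and a change of RNA per cell cannot be told apart.

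Gm10252 was read at a very high level. It had 1792, 1295 and 1431 FPKM in OI libraries, against 837.6, 854.6 and 948.9 FPKM in control libraries. All 3 OI libraries lay above all 3 control libraries, and the lowest OI value was 1.365 times the highest control value. The mean was 1506 ± 257 FPKM in OI cells and 880.4 ± 59.96 FPKM in control cells (SD, n = 3 each), a ratio of means of 1.71. On the log2(FPKM + 1) scale the difference was 0.76 with a standard error of 0.13, and without control replicate 1, the library that stood apart, it was 0.73.

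The same level expressed in reads was 47897, 39079 and 30584 reads in OI libraries, against 17033, 21702 and 23680 reads in control libraries. Scaled to library size as RPM, which leaves gene length out, this was 1491, 1077 and 1191 RPM in OI libraries, against 697, 711 and 790 RPM in control libraries. Counting error is small at this depth, and the spread of Gm10252 was wider among OI libraries, with a coefficient of variation of 17.1%, than among control libraries, with 6.81%. OI replicate 1 was the highest library and set much of the OI spread. By FPKM within a library, Gm10252 ranked 7, 6 and 8 among the genes analysed in OI libraries, against 14, 8 and 8 in control libraries.

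Gm47428 was read at a much lower level but kept a similar ratio between the groups. It had 36.55, 33.87 and 34.34 FPKM in OI libraries, against 18.14, 18.14 and 22.80 FPKM in control libraries. The groups again did not overlap, and the lowest OI value was 1.485 times the highest control value. The mean was 34.9 ± 1.43 FPKM in OI cells and 19.7 ± 2.69 FPKM in control cells (SD, n = 3 each), a ratio of means of 1.77. On the log2(FPKM + 1) scale the difference was 0.80 with a standard error of 0.11, and 0.75 without control replicate 1.

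In reads, Gm47428 had 776, 812 and 583 in OI libraries, against 293, 366 and 452 in control libraries. Here the OI libraries were the closer together, with a coefficient of variation of 4.10% against 13.7% in the control, where replicate 3 was the high one. Within a library, Gm47428 ranked 116, 117 and 114 by FPKM in OI libraries, against 230, 224 and 184 in control libraries.

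**Figure D2:**
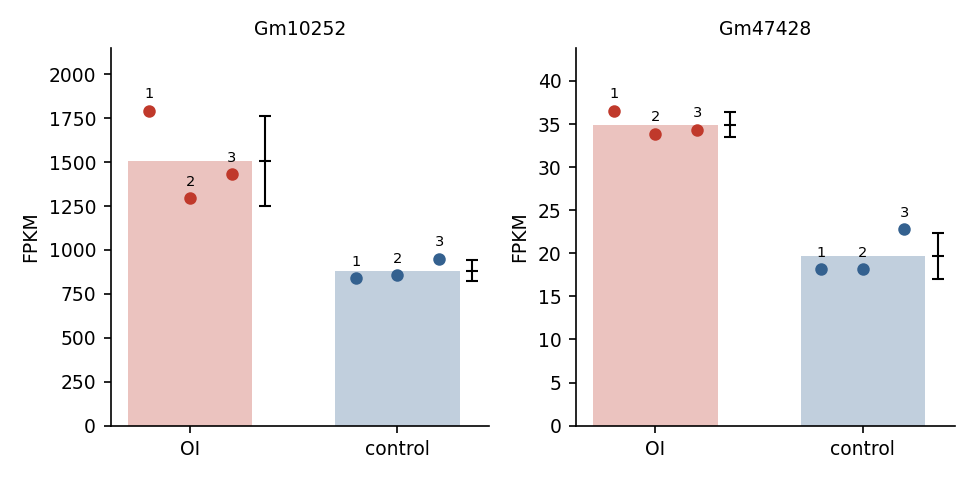
FPKM of Gm10252 (left) and Gm47428 (right) in OI and control libraries, with axes from 0. Points are libraries numbered by replicate, bars are means and the whiskers beside them are ± 1 SD (n = 3 each). In both genes every OI point lies above every control point.

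Non-overlap of this kind was common. Every OI library lay above every control library in 193 of the 1737 genes tested (11.1%), and below in 217 (12.5%). A gene entered the test when at least 3 libraries reached 1 FPKM, a filter that both opposite-strand genes passed in all libraries. At a limma adjusted p under 0.05, 48 genes (2.76%) were called, 20 of them higher (1.15%) and 28 lower (1.61%) in OI cells. The genes tested include Gm10252 and Gm47428, which this contrast chose, so the counts are not free of that choice. Leaving out any 1 library lowered the count of calls, to between 15 (without OI replicate 2) and 27 (without control replicate 3). The split moved too: 2 genes were higher and 13 lower without OI replicate 2, 2 higher and 14 lower without OI replicate 3, 4 higher and 15 lower without control replicate 2, and 3 higher and 11 lower with no filter. The median log2 fold change over the 1737 genes was -0.02, and 774 were above 0. By size of the log2 fold change, Gm47428 stood at rank 27 and Gm10252 at rank 32 of the 1737. These ranks describe the contrast that chose the genes, and nothing is read from them.

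**Figure D3:**
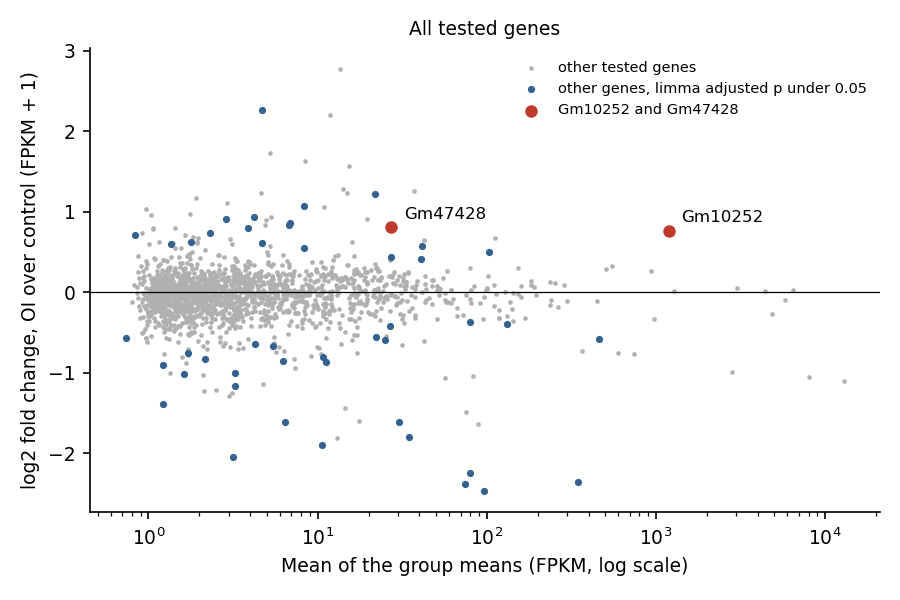
log2 fold change of OI over control on the log2(FPKM + 1) scale against the mean of the group means in FPKM (log axis) for the 1737 genes tested. Gm10252 (0.76) and Gm47428 (0.80) are in red, other genes with a limma adjusted p under 0.05 in blue. Gm10252 has rank 10 by mean FPKM and Gm47428 rank 152.

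The mean proportion of the 2 genes to each other was similar in OI and control libraries, though it varied between single libraries. The ratio of the Gm10252 level to the Gm47428 level in FPKM, which is per length, was 49.0, 38.2 and 41.7 in OI libraries, against 46.2, 47.1 and 41.6 in control libraries. Its mean was 43.0 ± 5.52 in OI cells and 44.97 ± 2.94 in control cells (SD, n = 3 each), and the groups overlapped. Across the 6 libraries the log2(FPKM + 1) values of the 2 genes had a Pearson correlation of 0.96. Each of them correlated more closely with the genes named below as most like it, at 0.968 to 0.979. The correlation of 0.96 is a description over 2 groups of libraries that lie apart, for genes that share sequence and library depth. The order of the libraries by FPKM was the same in both genes, with control replicates 1 and 2 almost level in Gm47428, but the spacing differed. OI replicate 1 exceeded the other OI libraries clearly in Gm10252 and only slightly in Gm47428.

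**Figure D4:**
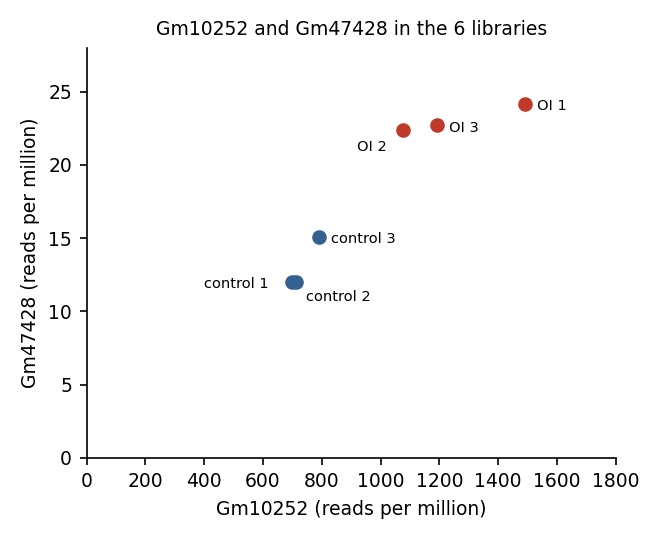
RPM (reads scaled to library size) of Gm47428 against Gm10252 in the 6 libraries, with both axes from 0, OI libraries in red and control libraries in blue. The OI libraries lie at 1077 to 1491 for Gm10252 and at 22.39 to 24.16 for Gm47428, and the control libraries at 697 to 790 and at 11.99 to 15.07.

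Both genes stood high in level among genes of their kind, while the median difference of each class lay just below 0. Among 122 tested TEC genes Gm10252 had the highest level, 1190 FPKM as the mean of the group means, ahead of Gm37376 at 743 FPKM. The median log2 fold change of the TEC genes was -0.09, with 40 above 0. Among 334 tested antisense genes Gm47428 was at rank 12 by level, and the median log2 fold change was -0.03, with 143 above 0. In all, 621 tested genes shared exonic bases on the opposite strand with a protein-coding gene. Gm10252 was again the highest of these and Gm47428 at rank 30, and the next after Gm10252 was Gm26619 at 297 FPKM. The median log2 fold change of the 621 genes was -0.02, with 276 above 0. By limma, 5 of the 621 were called higher and 14 lower in OI cells, beside 1.15% and 1.61% of all genes tested. In 67 of the 621 every OI library lay above every control library, and in 83 every one lay below. The shares over all genes tested were 11.1% and 12.5%. These counts include Gm10252 and Gm47428, which were chosen by this contrast.

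The next tested genes on either side lay far away and gave smaller differences. On chromosome 7, Gm22478, a small nucleolar RNA 70785 bases before Gm10252, averaged 3.11 ± 0.79 FPKM in OI cells and 2.05 ± 0.93 FPKM in control cells, with overlapping groups (log2 fold change 0.46, limma adjusted p = 0.424). Gm45444, 353722 bases after it, differed by 0.05 on the log2 scale (limma adjusted p = 0.823). On chromosome 13, E430024I08Rik, a long intergenic RNA 28044 bases from Gm47428, had 3.52, 4.20 and 3.30 FPKM in OI libraries, against 2.34, 2.76 and 3.10 FPKM in control libraries. Its groups did not overlap, in the same direction as Gm47428 (log2 fold change 0.32, limma unadjusted p = 0.032, adjusted p = 0.24). Rpl9-ps4, a copy of a ribosomal protein gene 1948843 bases away, differed by 0.04 on the log2 scale (limma adjusted p = 0.872). None of the 4 passed the threshold.

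Other ferritin copies were read only faintly. Of the 14 ferritin genes on the list used, 2 pseudogenes were analysed, Ftl1-ps2 of the light chain and Fth-ps2 of the heavy chain. Besides Gm10252 and Gm47428, 8 genes were ferritin genes, overlapped one or were near-identical to one; 6 of them had reads and 1, Mir692-2, passed the filter for testing. Ftl1-ps2 had 14, 19 and 18 reads in OI libraries, against 5, 10 and 11 reads in control libraries, or 0.79, 0.95 and 1.28 FPKM against 0.37, 0.60 and 0.67 FPKM. Its groups did not overlap, but it fell below the filter. Without the filter its log2 fold change was 0.38 (limma, unadjusted p = 0.0265, adjusted p = 0.734 over all genes), and in limma voom on the recovered reads it was 0.77 ± 0.40 (SE, adjusted p = 0.432). Ftl1-ps2 is described here after its values were seen. The heavy chain copy Fth-ps2 had 2, 7 and 5 reads in OI libraries, against 8, 2 and 4 reads in control libraries.

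Mir692-2 carries a microRNA whose mature sequence is also part of the ferritin light chain coding sequence. It is printed here because its gene overlaps the pseudogene Ftl2-ps and is an exact copy of a stretch of Ftl1-ps1. The mature sequence (RefSeq, GRCm38.p6, chr4:125504805-125504825, plus strand) has its seed, bases 2 to 8, in capitals.
mmu-miR-692: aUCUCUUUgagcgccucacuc
In DNA letters it occurred unchanged in Ftl1 from base 771 of 968 and in Ftl1-ps1 from base 713 of 938, in the coding part of both. It was in neither Gm10252 nor Gm47428. Mir692-2 had 2.00, 2.53 and 1.79 FPKM in OI libraries, against 2.63, 3.01 and 0.92 FPKM in control libraries. The groups overlapped, and the log2 fold change was 0.03 with a standard error of 0.29 (limma adjusted p = 0.973). A TruSeq RNA kit was used, which is not designed to capture mature microRNAs. The difference was smaller than the spread between replicates, at 3 to 10 reads per library.

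Iron-handling genes other than ferritin were reached only through overlapping genes. None of the 32 list genes was analysed, 12 analysed genes were linked to them and 3 were tested, with 0 called by limma; 2 of the 3 had an unadjusted p under 0.05. A230020J21Rik, antisense to Flvcr1 (a haem exporter), had 1.83, 1.65 and 2.12 FPKM in OI libraries, against 0.79, 1.61 and 1.03 FPKM in control libraries (log2 fold change 0.43, adjusted p = 0.242). 1600020E01Rik overlaps a small part of Pcbp1, a chaperone that delivers iron to ferritin, on the opposite strand. It had 1.99, 2.05 and 1.94 FPKM in OI libraries, against 2.74, 2.26 and 2.90 FPKM in control libraries (log2 fold change -0.27, adjusted p = 0.233). Both were free of overlap between groups, in opposite directions. Gm31748, opposite Slc25a37 (mitoferrin, which brings iron into mitochondria), had a log2 fold change of 0.33 with overlapping groups (adjusted p = 0.579). The exonic bases shared were 809 of 1649 in A230020J21Rik, 75 of 2099 in 1600020E01Rik and 381 of 1497 in Gm31748. Their values therefore need not reflect the list genes. The median over the 3 was 0.33, beside -0.02 over all genes tested, and was 0.025 without control replicate 1, where Gm31748 had its lowest value of 0.08 FPKM.

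Of the genes that copy or overlap NRF2 targets, 2 rose past the threshold. None of the 43 list genes was analysed. Of 29 linked genes, with ferritin links left out, 22 had reads and 11 were tested, which stand for 7 list genes. All 11 tested genes had a log2 fold change above 0, with a median of 0.49 beside -0.02 over all genes. Gm3776 and Ugt1a7c passed the filter only through OI libraries, where they were high. In control libraries Gm3776 had 0.56, 0.97 and 1.18 FPKM, and Ugt1a7c had 0.50, 0.58 and 1.22 FPKM. The filter thus favoured a rise in both genes, and they weigh in the counts given here. Gm6061, 1 of the 11, turned to -0.033 without control replicate 2. The linked genes with too few reads for the test were mixed, for example Txn-ps1 at a mean of 0.63 FPKM in OI cells and 0.26 FPKM in control cells, and Gm17823 at 0.10 FPKM in OI cells and 0.18 FPKM in control cells. In 5 of the 11 tested genes every OI library lay above every control library, beside 11.1% of all genes tested. The median was 0.62 without control replicate 1, 0.26 without OI replicate 1, 0.29 with a pseudocount of 5, and 0.22 over all 22 linked genes with reads when no filter was used. The share called was 2 of 11, beside 1.15% called higher over all genes, a share that itself moved with the libraries and settings as given above. Several of the 11 share a target, so they are not 11 separate observations. The NRF2 list, like the ferritin and iron-handling lists, was chosen with earlier results of these data known. The counts, shares and p-values of its genes are therefore descriptions and no independent check.

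Gm3776 is a protein-coding gene 99.5% identical to Gsta1, a glutathione transferase. It had 5.06, 11.1 and 9.27 FPKM in OI libraries, against 0.56, 0.97 and 1.18 FPKM in control libraries, and rose by 2.27 on the log2(FPKM + 1) scale with a standard error of 0.28 (limma adjusted p = 0.0129). Gm6644, a processed pseudogene 99.7% identical to Akr1b3 (aldose reductase), had 5.30, 6.44 and 5.73 FPKM in OI libraries, against 2.54, 2.41 and 2.80 FPKM in control libraries. It rose by 0.93 with a standard error of 0.10 (limma adjusted p = 0.00718). As with Gm10252 and Gm47428, reads of these and the other near-identical copies could not be told apart from reads of the genes they copy. Without control replicate 1, Gm6644 was at 0.92 (adjusted p = 0.0348) and Gm3776 at 2.13 (0.0486). Gm3776 lost its call without OI replicate 2 (log2 fold change 2.06, adjusted p = 0.0556), without OI replicate 3 (2.18 and 0.0652) and without control replicate 2 (2.30 and 0.0645).

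The remaining targets gave differences that did not pass. Ugt1a7c, one of the UDP-glucuronosyltransferases that share exons with Ugt1a6a, had 1.65, 3.27 and 4.25 FPKM in OI libraries, against 0.50, 0.58 and 1.22 FPKM in control libraries (log2 fold change 1.16, limma adjusted p = 0.11). Gstm2-ps1, a copy of the glutathione transferase gene Gstm1, was at 0.49 (adjusted p = 0.23), and Gm48795, near-identical to the malic enzyme gene Me1, at 0.34 (0.278). Gm21399, a copy of the peroxiredoxin gene Prdx1, was at 0.22 (0.295). Gm6061 shares exonic bases with Gclm, a subunit of the enzyme that starts glutathione synthesis, but is 99.8% identical to Ppia, and its libraries ranged from 30.2 to 78.7 FPKM with OI and from 10.6 to 60.7 FPKM in the control (log2 fold change 0.65, adjusted p = 0.675). For NRF2's own regulators, the 1 tested gene was Gm16754, opposite Keap1, with a log2 fold change of -0.11 (adjusted p = 0.745).

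**Figure D5:**
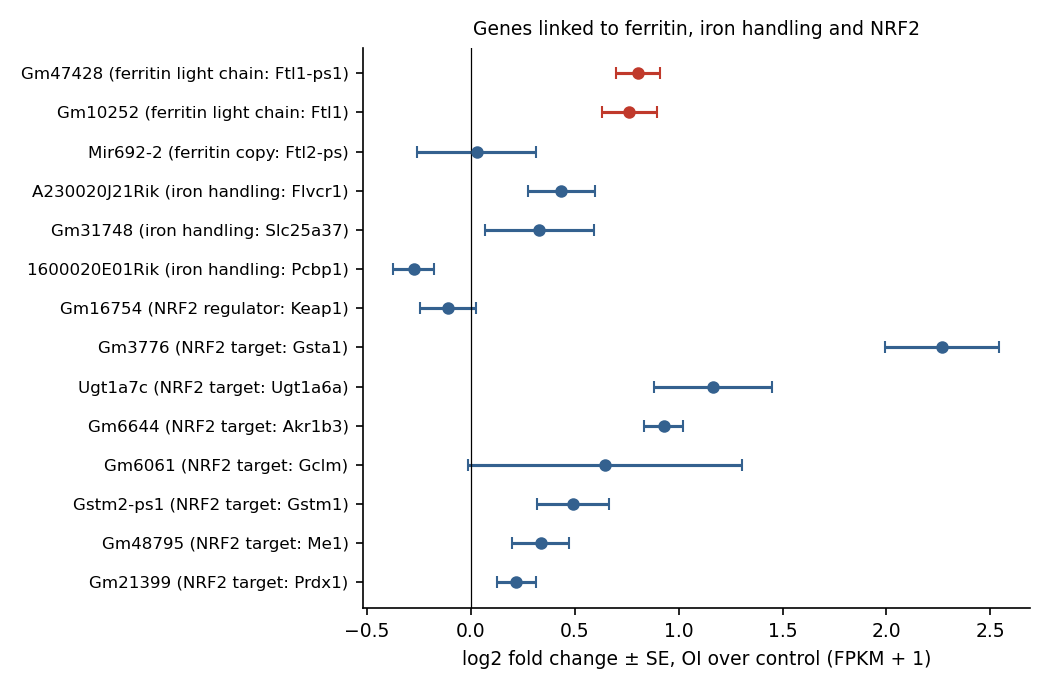
log2 fold change of OI over control on the log2(FPKM + 1) scale, with ± 1 SE, for Gm10252 and Gm47428 (red) and for tested genes linked to ferritin, iron handling, NRF2 regulators and NRF2 targets (blue), with the list gene behind each in brackets. Gm3776 lies furthest right at 2.27, and 1600020E01Rik and Gm16754 lie left of 0.

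Among tested genes with a mean of 10 FPKM or more, those whose pattern over the 6 libraries was most like that of Gm10252 were Gm12346 (Pearson r = 0.979), Gm15801 (0.977), 1700101I11Rik (0.974), Scpep1 (0.972) and Rps2-ps10 (0.968). Gm12346 is a near-identical copy of Hsp90aa1, a heat shock chaperone gene, Gm15801 of the phosphatase gene Ptp4a1, and Rps2-ps10 of the ribosomal protein gene Rps2. 1700101I11Rik overlaps Gabarapl1, an autophagy gene, and Scpep1 codes for a serine carboxypeptidase. Their log2 fold changes were smaller than that of Gm10252, between 0.11 for Scpep1 and 0.39 for Gm12346.

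Those most like Gm47428 were Hspa1b (r = 0.977), Rab11b-ps2 (0.976), Rps2-ps10 (0.972), Dynlt1 (0.971) and Kansl2-ps (0.969). Hspa1b codes for the stress-induced chaperone HSP70 and had 46.4, 46.0 and 46.7 FPKM in OI libraries, against 40.2, 40.3 and 40.8 FPKM in control libraries. Rab11b-ps2 is a copy of Rab11b, a membrane traffic gene, Kansl2-ps of Kansl2, a chromatin complex gene, and Dynlt1 codes for a dynein light chain. Their log2 fold changes lay between 0.19 for Hspa1b and 0.45 for Rab11b-ps2. Rps2-ps10 appeared in both lists, at 1064, 1018 and 975.2 FPKM in OI libraries, against 837.6, 837.3 and 870.9 FPKM in control libraries. The likeness measure follows the same groups that chose Gm10252 and Gm47428, and each library's depth and RNA make-up enter all genes, so these correlations are given as descriptions.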

How the data were processed

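RNA-seq was measured in 6 libraries, 3 OI and 3 control. The submitters' processing notes name cutadapt 2.7, HISAT2 2.1.0, StringTie 1.3.3b and the build mm10. The authors deposited FPKM values per gene, with gene length; 1 of 27943 rows was broken and left out. Reads were recovered as FPKM times length times library size, whole within 0.01 in genes of 1 exon and in 84.5% to 86.0% of all values. limma 3.58.1 in R 4.3.3 was run on log2(FPKM + 1), which understates changes of low genes, with trend=TRUE, two-sided, with Benjamini-Hochberg adjustment over the 1737 genes with 1 FPKM or more in at least 3 of 6 libraries and a threshold of 0.05. The fit was run on simulated data with independent normal noise for each gene. Those data held no library that stood apart, so the run is no check of the calls made here. Links to list genes are exonic overlap on either strand (GENCODE M21, GRCm38) or the best near-identical transcript (BLAST+ 2.17.0, 90% identity or more across 80% of the transcript). Of the identifiers, 27864 are in GENCODE M21, 27459 at the same position. Python 3.11.15 with pandas 2.3.3 and Matplotlib 3.10.9 served for tables and figures.

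Gm10252, Gm47428 and the lists were chosen with earlier results of these data known. Named genes are these 2, every tested gene linked to ferritin, iron handling or NRF2 regulators, linked NRF2-target genes past the threshold plus the one with the smallest p per remaining target, the 5 genes most like each of the 2 with a mean of 10 FPKM or more, and the nearest tested gene on each side. Alternatives were other pseudocounts (0.1 and 5), other filters (none, and 5 FPKM), quantile normalization, median-of-ratios scaling, trend=FALSE, a block for the replicate number, and dropping 1 library at a time. Library size without AY036118 reads, and limma voom on recovered reads where at least 3 libraries had 10 reads, were added after seeing the data.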

Additional observations from a re-analysis of the deposited data

How the results depend on the processing

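The log2 fold change of Gm10252 lay between 0.63 (without OI replicate 1) and 0.86 (without OI replicate 2) under the 16 alternatives, and that of Gm47428 between 0.70 (pseudocount 5) and 0.91 (without control replicate 3). Under quantile normalization Gm10252 was at 0.83 with a standard error of 0.44. It then had 1902, 2331 and 1443 FPKM in OI libraries, against 550.5, 1443 and 1443 FPKM in control libraries. OI replicate 3 was thus level with control replicates 2 and 3, and the groups no longer lay apart. This method sets each value by its rank within the library, and Gm10252 had rank 8 in each of these libraries. Gm47428 stayed apart, at 35.24, 35.07 and 35.54 FPKM in OI libraries, against 17.83, 18.28 and 22.38 FPKM in control libraries. The count of called genes was 48, and was 14 of 10948 with no filter, 17 with the replicate number as a block (3 higher and 14 lower in OI cells) and 15 (without OI replicate 2) to 27 (without control replicate 3) when 1 library was left out; the cause was not tested. Deviations of same-numbered libraries correlated at 0.05, 0.14 and -0.08, and those of differently numbered libraries between -0.14 and 0.08. These values gave no clear sign that the numbers pair the samples, but with 3 libraries per group they cannot exclude it. The median of the iron-handling-linked genes was 0.71 with pseudocount 0.1, 0.0918 with pseudocount 5, -0.058 with no filter (9 genes), -0.39 in voom on recovered reads (5 genes), and 0.025 (without control replicate 1) to 0.47 with 1 library left out. The median of the NRF2-target-linked genes (0.49) was 0.22 with no filter (22 genes) and 0.29 with pseudocount 5. The other ferritin-linked gene in voom was Ftl1-ps2, at 0.77. The filter at 5 FPKM left no iron-handling-linked gene, and no ferritin-linked gene besides Gm10252 and Gm47428. It left 7 NRF2-target-linked genes, with a median of 0.65. Mir692-2 turned to -0.0050 with pseudocount 5, and with 1 library left out it lay between -0.30 (without control replicate 3) and 0.23, and was -0.07 without OI replicate 2. With 1 library left out, Gm16754 lay between -0.20 and 0.020 (without OI replicate 2), Gm6061 between -0.033 (without control replicate 2) and 1.17, and Rpl9-ps4 between -0.023 (without control replicate 2) and 0.11. Gm6644 lost its call under the block (adjusted p = 0.073) and Gm3776 with no filter (adjusted p = 0.0571). Of 388 values of the other 25 named genes, 353 kept direction and side of the threshold. Depth limits the ferritin copies other than Gm10252 and Gm47428, at 0 to 19 reads per library.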
